A study of Mus musculus with 7 samples.

Results

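The mitochondrial carriers of solute carrier family 25 were examined in the livers of male C57BL/6 mice kept on caloric restriction (CR) or fed ad libitum (AL). Members were the rows of the deposited table with the biotype protein-coding and a gene name of Slc25a followed by a number, with Slc25a13, Slc25a15 and Slc25a20 set aside by the rule. This gave 44 members among 54532 genes, of which 22046 are protein-coding. The 4 CR mice began the diet at 12 weeks of age, reached a reduction of 30% in calories, lived singly and received a daily meal soon after dark. The 3 AL mice shared cages and had food at all times. All 7 mice were killed in the afternoon at 30 weeks of age, after 18 weeks of diet, so that diet, housing and hours without food cannot be told apart. Each mouse gave 1 library of poly(A) RNA, and p-values therefore measure the spread between animals. No source used here gives the cage of each AL mouse, so whether these mice were independent is not known.

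Carriers of this family sit, with few exceptions, in the inner mitochondrial membrane, which is otherwise closed to most metabolites. Each is a small protein of repeated membrane-spanning units that usually exchanges a substrate on one side for another on the other side. They bring ADP and phosphate to ATP synthase, move citrate, malate, glutamate and aspartate between matrix and cytosol, and supply the matrix with cofactors, iron and glutathione. In liver, the organ of gluconeogenesis, urea synthesis and lipogenesis, these pathways run partly inside and partly outside mitochondria.

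Gene expression is given as FPKM as deposited, a read count scaled by gene length and a depth for each library. The depth that the values imply was 0.989 to 1.05 times the reads recovered from them, so that libraries were not scaled to these read totals alone. The recovered reads totalled 15641740 to 19900806 per library, so that a single read over 2 kb is worth 0.0250 to 0.0321 FPKM. The share of reads from mitochondrial genes was 5.62% to 8.09% in CR livers and 3.92% to 4.85% in AL livers, and that of the top 10 genes of each library was 19.2% to 21.6% in CR livers and 15.5% to 16.1% in AL livers. CR replicates 1 and 2 stood apart from CR replicates 3 and 4 on the second principal component of all genes, at 13.0 and 13.7 against -15.5 and -15.4, and AL replicates 1 to 3 were at -15.2, -8.18 and 27.5 on it. Summed markers of hepatocytes were 44640.5 to 50019 FPKM in CR livers and 19846 to 34688 FPKM in AL livers, with 1 of 5 genes called higher. Those of red blood cells were 251 to 397 FPKM in CR livers and 152 to 198 FPKM in AL livers, with 4 of 5 tested genes called higher and 1 lower, and those of adipocytes were 0 to 0.504 FPKM in CR livers and 3.41 to 6.26 FPKM in AL livers, with the only tested gene called lower and Lep at 0 in every liver. Markers of Kupffer cells (1 of 7 higher) and stellate cells (2 of 6 lower) held further calls, and those of endothelial cells, bile duct cells, lymphocytes and neutrophils held none. Over all genes tested 11.3% were called higher and 10.2% lower. Summed skeletal muscle markers stayed at or under 0.0418 FPKM in every liver and those of pancreas at or under 0.678 FPKM. The part of these differences in the results for the carriers was not tested.

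The pool of carrier transcripts was dominated by few members. Slc25a5, which exchanges ADP for ATP and is also called ANT2, made up 28.6% of the summed FPKM of all members in CR livers and 17.7% in AL livers. Slc25a47, a carrier found mainly in liver, made up 11.2% in CR livers and 17.7% in AL livers, and Slc25a39, which serves glutathione import, made up 14.1% in CR livers and 11.5% in AL livers. The sum over all members was 1093 to 1346 FPKM in CR livers and 1011 to 1152 FPKM in AL livers, so that the totals overlapped. Mean FPKM over the 7 livers was above 50 for 6 members, above 10 for 17 and above 1 for 31.

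**Figure D1:**
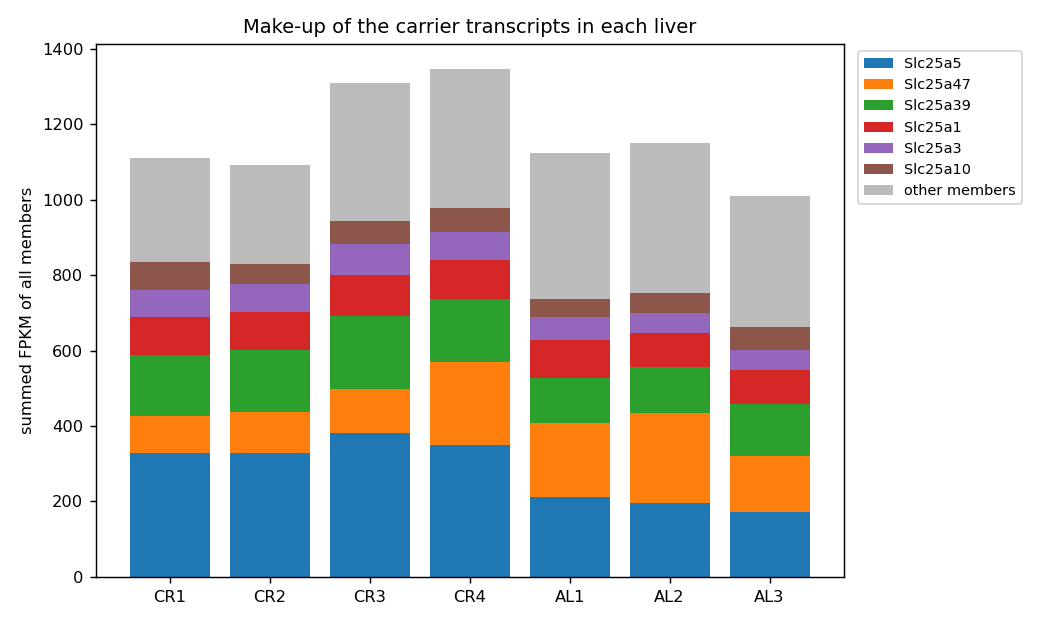
Stacked bars give the summed FPKM of all 44 carriers in each liver, CR1 to CR4 and AL1 to AL3 being the replicates of each diet, with the 6 members above 50 FPKM in colour. The Slc25a5 block is taller in each CR liver, 329 to 381 FPKM, than in the AL livers, 173 to 212 FPKM, while the totals of CR and AL livers overlap.

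To ask which carriers differ between the diets, log2(FPKM + 0.1) was compared with limma over 12699 genes that reached 0.5 FPKM in 3 or more livers, and a gene was called at an adjusted p under 0.05, whatever its fold change. Of the 44 members 35 were tested. Called higher in CR livers were 9 of them (25.7% of those tested, against 11.3% of all genes tested), and called lower were 6 (17.1%, against 10.2%). The other 20 did not pass. The median log2 fold change was 0.03 over the tested members and -0.00185 over all genes tested. The 9 include Slc25a27, which passed the filter through CR livers alone, so that its direction was fixed. With at least 1 FPKM required in every liver it was not tested, and 8 members were called higher and 6 lower. In that fit 1179 of 9039 genes were called higher and 1045 lower. In the main test all 15 called members had groups that did not overlap. The calls and this separation come from the same values, so the separation adds no support of its own. Every CR liver lay above every AL liver for 12 members, Slc25a27 included (background 17.6% of all genes), and below for 6 (background 16.8%). When libraries were scaled to their totals without mitochondrial and the 10 most abundant genes, the split over all genes moved to 1945 higher and 958 lower, against 1433 and 1291, and that of the members to 10 higher and 6 lower.

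**Figure D2:**
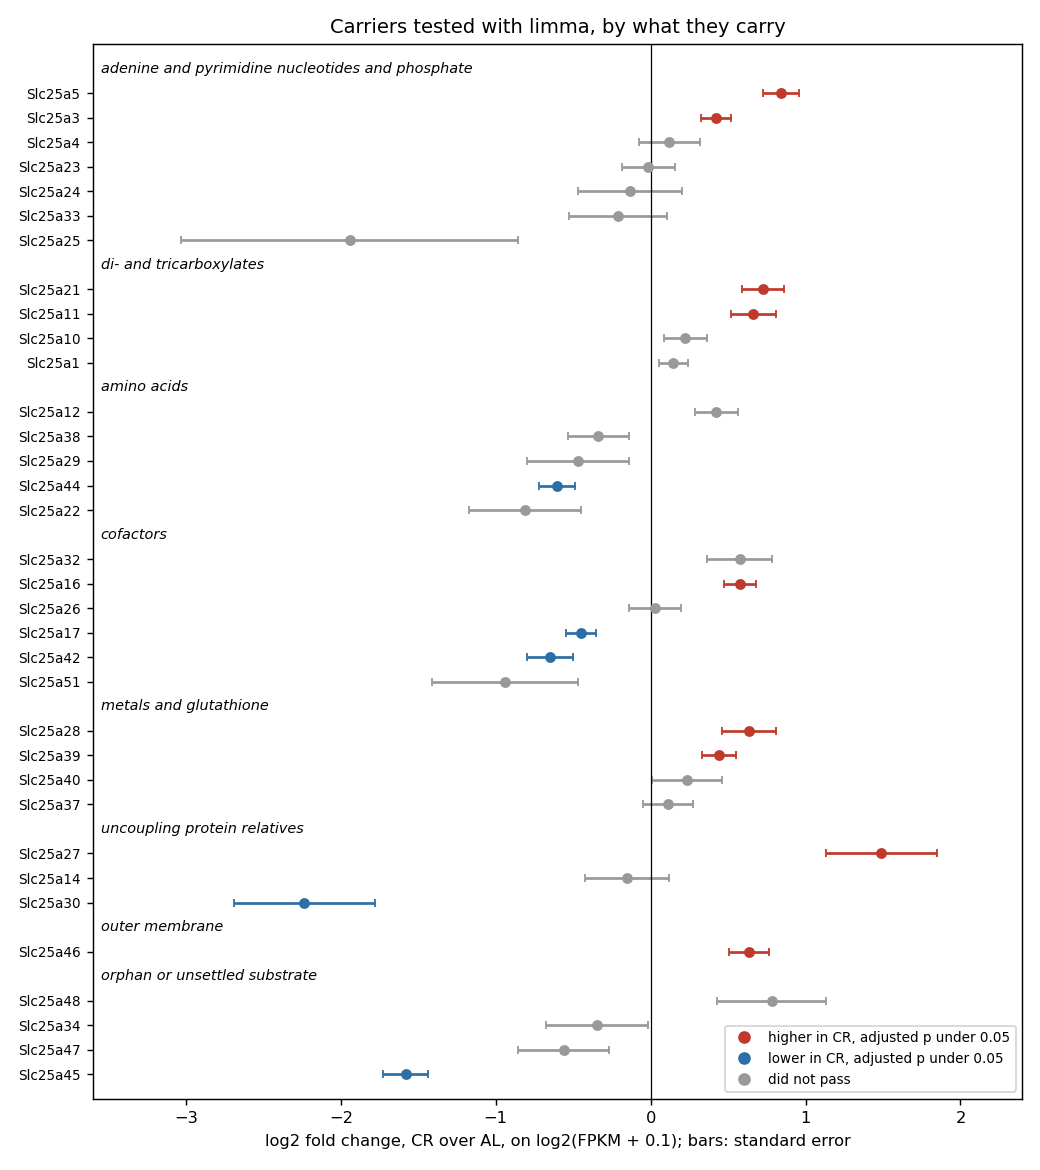
Points give limma's log2 fold change, CR over AL, of 34 tested carriers, grouped by what they carry, with the standard error as bars, and colour marks an adjusted p under 0.05. Called members lie between -2.23 for Slc25a30 and 1.49 for Slc25a27, and Slc25a25 has the widest bar. Slc25a27 passed the filter through CR livers alone, so that its direction was fixed.

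Among carriers of nucleotides and phosphate, which feed oxidative phosphorylation, 2 of 7 tested members rose in CR livers, none fell and 5 did not pass. Over all genes tested 11.3% were called higher and 10.2% lower. Each role held at most 7 tested members, and no role was tested as a set. Slc25a5 (GRCm38 chromosome X, 36795651 to 36798807, plus strand) was 329, 329, 381 and 351 FPKM in CR replicates 1 to 4, against 212, 196 and 173 FPKM in AL replicates 1 to 3. Its lowest CR liver was far above its highest AL liver, and the mean was 347 ± 24.6 FPKM in CR livers (SD, n = 4) and 194 ± 19.6 FPKM in AL livers (SD, n = 3), which is 1.79-fold higher in CR (log2 fold change 0.84 with a standard error, SE, of 0.12 and an adjusted p of 0.00304). In bulk tissue, more transcript per cell and more cells that hold it cannot be told apart. Slc25a5 shares 8.33% of the 100-base words of its transcripts with other genes, so that some reads could be split between copies. Slc25a3, the phosphate carrier, was 69.9, 72.9, 81.3 and 74.2 FPKM in CR livers, against 59.4, 54.5 and 52.9 FPKM in AL livers (1.34-fold higher, log2 fold change 0.42, SE 0.10, adjusted p = 0.0224). The groups were apart, but the adjusted p of Slc25a3 was 0.0518 without CR replicate 2 and 0.0891 without AL replicate 2. The 3 tested carriers that exchange ATP-Mg for phosphate did not pass. Slc25a23 was 55.2, 50.2, 47.8 and 44.2 FPKM in CR livers, against 43.2, 43.1 and 66.0 FPKM in AL livers (adjusted p = 0.955), with Crb3 on the opposite strand at 12.2% of its mean. Slc25a24 was between 0.425 and 0.873 FPKM in CR livers and between 0.501 and 1.03 FPKM in AL livers (adjusted p = 0.807), and Slc25a25 is described with the spread among CR livers. Slc25a4 (ANT1), the form that predominates in heart and muscle, was 1.78 to 2.85 FPKM in CR livers and 1.75 to 2.43 FPKM in AL livers (adjusted p = 0.697). Slc25a33, a carrier of pyrimidine nucleotides, also did not pass (adjusted p = 0.670).

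The bases before the start sites of Slc25a5, Slc25a3 and Slc25a25, which carry ADP, phosphate and ATP-Mg, are shown. Slc25a5, also the most abundant member, was taken for its small adjusted p in limma (0.00304). Slc25a3 was taken as the only called member with a match to any of 7 regulator motifs, and Slc25a25 because it varied most among CR livers. Each run is the 250 bases before a RefSeq start site on GRCm38.p6, read 5′ to 3′ on the strand of the gene. Capitals mark the 50 bases next to the start site in Slc25a5 (chrX:36795347-36795596, plus strand), a match to the motif of the factor NRF1 in Slc25a3 (chr10:91123968-91124217, minus strand) and the cyclic AMP response element (CRE) TGACGTCA in Slc25a25 (chr2:32424067-32424316, minus strand, 1 of 3 start sites of this gene). Each of these members was chosen after its values were seen.
Slc25a5: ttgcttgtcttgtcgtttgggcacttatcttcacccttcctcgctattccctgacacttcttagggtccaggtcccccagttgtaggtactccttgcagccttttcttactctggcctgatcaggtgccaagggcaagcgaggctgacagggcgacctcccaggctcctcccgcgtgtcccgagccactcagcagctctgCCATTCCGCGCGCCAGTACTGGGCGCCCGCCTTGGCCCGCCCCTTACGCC
Slc25a3: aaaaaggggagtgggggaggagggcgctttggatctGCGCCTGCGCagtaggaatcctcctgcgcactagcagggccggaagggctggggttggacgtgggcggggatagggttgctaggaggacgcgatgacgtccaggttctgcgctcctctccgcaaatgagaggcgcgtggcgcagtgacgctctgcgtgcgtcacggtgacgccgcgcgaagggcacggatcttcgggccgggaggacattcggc
Slc25a25: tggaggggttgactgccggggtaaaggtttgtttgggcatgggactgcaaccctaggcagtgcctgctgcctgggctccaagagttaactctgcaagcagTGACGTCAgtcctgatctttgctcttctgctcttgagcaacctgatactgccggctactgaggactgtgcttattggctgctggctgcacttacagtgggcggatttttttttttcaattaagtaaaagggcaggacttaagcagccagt

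Over windows from 250 bases before to 50 bases after the start, searched on both strands, the NRF1 motif was found in 2 of 42 member windows (Slc25a3 and Slc25a31) and in 4.60% of all 32851 windows. The CRE was found in 2 member windows (Slc25a25 and Slc25a36) and in 1.79% of all windows. CACGTG, the E-box, was in 6 member windows, of Slc25a1, Slc25a14, Slc25a31, Slc25a33 and Slc25a36, and in 7.15% of all. Overlapping windows of Slc25a14 hold the same E-box, which is thus counted more than once. G and C made up 59.1% of the bases in member windows and 53.8% in all windows. TCACNCCAC, an element of SREBP factors, was in the window of Slc25a18 and in 1.24% of all. No member window held TGATGNAA, the element of ATF4 and CHOP (3.97% of all windows), TCAAGGTCA, the element of ERR receptors (0.423%), or the element of PPAR receptors, a direct repeat spaced by any base (0.0396%). Windows were found for 33 of the 44 members and for 11 of the 15 called ones. A match is a description of letters and not evidence of binding.

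Of 4 carriers of di- and tricarboxylates 2 were called higher, none lower and 2 did not pass (all genes tested: 11.3% higher, 10.2% lower). Slc25a11, the oxoglutarate carrier of the malate-aspartate shuttle, was 41.1, 39.5, 41.4 and 46.8 FPKM in CR livers, against 24.5, 23.0 and 33.1 FPKM in AL livers (1.57-fold higher, log2 fold change 0.66, SE 0.14, adjusted p = 0.0164). Its groups did not overlap, AL replicate 3 was nearest to the CR livers, and the adjusted p of Slc25a11 was 0.0664 without AL replicate 1 and 0.0699 without AL replicate 2. Slc25a11 overlaps Rnf167 on the opposite strand by 245 bases. Rnf167 was at 26.5% of the Slc25a11 mean, and since no source used here gives the strand setting of the read counting, reads in the overlap cannot be told apart. Slc25a21, the oxodicarboxylate carrier of lysine and tryptophan breakdown, was 3.29, 2.90, 2.73 and 2.91 FPKM in CR livers, against 1.84, 1.51 and 1.91 FPKM in AL livers (1.69-fold higher, log2 fold change 0.73, SE 0.14, adjusted p = 0.00952). Every CR liver was above every AL liver, and the call of Slc25a21 held without each library in turn. Slc25a1, which exports citrate for lipogenesis, was 101, 102, 108 and 104 FPKM in CR livers, against 101, 88.7 and 91.8 FPKM in AL livers, and Slc25a10, the carrier of malate and succinate, was 75.9, 53.4, 61.2 and 62.4 FPKM in CR livers, against 48.9, 53.5 and 59.4 FPKM in AL livers. Neither passed (adjusted p = 0.304 for Slc25a1 and 0.291 for Slc25a10), although every CR liver was just above every AL liver for Slc25a1.

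Of the 5 tested amino acid carriers none rose, 1 fell and 4 did not pass (all genes tested: 11.3% higher, 10.2% lower). Slc25a44, which takes branched-chain amino acids into the matrix, was 16.0, 16.1, 16.4 and 15.3 FPKM in CR livers, against 26.6, 26.5 and 20.4 FPKM in AL livers (1.53-fold lower in CR, log2 fold change -0.60, SE 0.12, adjusted p = 0.0110). The CR livers were within 1.08-fold of each other and all below the AL livers, and the adjusted p of Slc25a44 was 0.0533 without AL replicate 2. Slc25a12, the aspartate-glutamate carrier also called aralar, was just outside the threshold at 3.42, 3.70, 4.40 and 3.87 FPKM in CR livers, against 2.76, 2.49 and 3.29 FPKM in AL livers (log2 fold change 0.42, SE 0.14, adjusted p = 0.0673). Its groups did not overlap. It was called in 1 of 7 fits that each left out a liver, the one without AL replicate 3 (adjusted p = 0.0381). It was also called in 1 of 10 other alternatives, with libraries scaled without mitochondrial and top genes (0.0249). Slc25a22, a glutamate carrier, Slc25a38, which imports glycine for heme synthesis, and Slc25a29, which carries arginine and lysine, came to -0.81, -0.34 and -0.47 on the log2 scale and did not pass (adjusted p = 0.152, 0.260 and 0.345).

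Of 6 cofactor carriers described here 1 rose, 2 fell and 3 did not pass (all genes tested: 11.3% higher, 10.2% lower). Slc25a42, a carrier of coenzyme A, was 12.4, 10.9, 11.7 and 14.6 FPKM in CR livers, against 16.2, 19.8 and 22.7 FPKM in AL livers (1.58-fold lower, log2 fold change -0.65, SE 0.15, adjusted p = 0.0198). The nearest livers of the 2 groups were 14.6 and 16.2 FPKM, and the adjusted p was 0.0513 without CR replicate 2 and 0.0732 without AL replicate 2. Slc25a17, the member that lies in the peroxisomal membrane and carries coenzyme A and related cofactors, was 14.5, 14.0, 15.1 and 13.1 FPKM in CR livers, against 19.1, 18.2 and 20.9 FPKM in AL livers (1.37-fold lower, log2 fold change -0.45, SE 0.10, adjusted p = 0.0157, and 0.0507 without AL replicate 1).

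In the opposite direction, Slc25a16, which has been linked to coenzyme A supply, was 21.5, 21.1, 25.7 and 22.8 FPKM in CR livers, against 14.6, 16.0 and 15.01 FPKM in AL livers (1.496-fold higher, log2 fold change 0.57, SE 0.10, adjusted p = 0.00808). The groups were well apart, and the call of Slc25a16 held without each library in turn. Slc25a32, the carrier of folate and FAD, was just outside the threshold at 6.84, 7.71, 9.77 and 11.6 FPKM in CR livers, against 6.82, 6.32 and 4.68 FPKM in AL livers (log2 fold change 0.58, SE 0.21, adjusted p = 0.0888). CR replicate 1 and AL replicate 1 were nearly level, and the groups did not overlap. Slc25a26, which imports S-adenosylmethionine, had a log2 fold change of 0.03 (adjusted p = 0.919), and Lrig1, on the opposite strand and overlapping it by 144 bases, was at 557% of its mean. Slc25a51, the NAD+ carrier, had a log2 fold change of -0.94 with a standard error of 0.47 (adjusted p = 0.195).

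Of 4 carriers of metals and glutathione 2 were called higher, none lower and 2 did not pass (all genes tested: 11.3% higher, 10.2% lower). Slc25a39 was 162, 164, 193 and 168 FPKM in CR livers, against 120.5, 123 and 136 FPKM in AL livers (1.36-fold higher, log2 fold change 0.44, SE 0.11, adjusted p = 0.0267). Every CR liver was above every AL liver, but the adjusted p was 0.0555, 0.0504 and 0.0511 without CR replicates 2, 3 and 4, and 0.1001 and 0.104 without AL replicates 1 and 2. Slc25a28, the mitoferrin of most tissues, which imports iron, was 13.2, 15.1, 21.9 and 18.2 FPKM in CR livers, against 9.73, 11.3 and 11.5 FPKM in AL livers (1.58-fold higher, log2 fold change 0.63, SE 0.18, adjusted p = 0.0394). Its groups did not overlap, but the call of Slc25a28 held without CR replicate 1 only, and was lost without each of the other 6 livers (0.0600 to 0.128), with no filter (0.0782) and without trended and robust variance (0.0558). Slc25a37, the mitoferrin of red cell precursors, was 7.87 to 11.4 FPKM in CR livers and 7.74 to 9.87 FPKM in AL livers (adjusted p = 0.649), while the summed red cell markers were higher in every CR liver, and the part of blood in these values was not tested. Slc25a40, the close relative of Slc25a39, was near the lower limit of the test at 0.542 to 0.738 FPKM in CR livers and 0.461 to 0.650 FPKM in AL livers (adjusted p = 0.504).

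Of the 3 tested relatives of the uncoupling proteins 1 was called higher and 1 lower (all genes tested: 11.3% higher, 10.2% lower). Slc25a30, also called kidney mitochondrial carrier protein, was 2.26, 1.62, 2.38 and 2.84 FPKM in CR livers, against 24.5, 9.72 and 5.36 FPKM in AL livers (5.80-fold lower by the means, log2 fold change -2.23, SE 0.46, adjusted p = 0.0137). AL livers differed 4.57-fold among themselves, and the lowest of them was still above every CR liver. The log2 fold change of Slc25a30 was -1.65 without AL replicate 1 and -2.74 without AL replicate 3, and the call held without each library in turn. Slc25a27 (UCP4), known mainly from brain, was 0.896, 0.916, 0.683 and 0.444 FPKM in CR livers, against 0.109, 0.269 and 0.212 FPKM in AL livers, from 70, 59, 46 and 35 reads in CR livers and 7, 18 and 13 reads in AL livers (log2 fold change 1.49, SE 0.36, adjusted p = 0.0244). It passed the filter through CR livers alone, so that a tested Slc25a27 had to be higher there, and its log2 fold change depended on the pseudocount, with 0.53 at 1. Without AL replicates 1 and 2 in turn its adjusted p was 0.0748 and 0.0509, and without CR replicate 1, 2 or 3 it was not tested. Slc25a14 (UCP5) was 0.676 to 1.001 FPKM in CR livers and 0.651 to 1.37 FPKM in AL livers (adjusted p = 0.725).

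The only member of the outer membrane, Slc25a46, which acts in the fusion and fission of mitochondria, was 15.2, 12.3, 13.4 and 11.6 FPKM in CR livers, against 8.11, 7.58 and 9.51 FPKM in AL livers (1.56-fold higher, log2 fold change 0.63, SE 0.13, adjusted p = 0.0130). The groups did not overlap, and its adjusted p was 0.0506 without AL replicate 1 and 0.0602 without AL replicate 2.

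Of the 4 tested members grouped as orphan or of unsettled substrate, 1 fell and 3 did not pass (all genes tested: 11.3% higher, 10.2% lower). Slc25a45 was 3.23, 2.91, 3.39 and 3.94 FPKM in CR livers, against 9.15, 9.53 and 12.2 FPKM in AL livers (3.06-fold lower, log2 fold change -1.58, SE 0.15, adjusted p = 0.000536). Every CR liver lay well below the lowest AL liver, and the adjusted p of Slc25a45, the smallest of any member, was at most 0.00434 without each library in turn. The 250 bases before its RefSeq start site (GRCm38.p6 chr19:5877572-5877821, plus strand) are shown because of that p, with the 50 bases next to the start site in capitals, and no motif searched was found in its window.
Slc25a45: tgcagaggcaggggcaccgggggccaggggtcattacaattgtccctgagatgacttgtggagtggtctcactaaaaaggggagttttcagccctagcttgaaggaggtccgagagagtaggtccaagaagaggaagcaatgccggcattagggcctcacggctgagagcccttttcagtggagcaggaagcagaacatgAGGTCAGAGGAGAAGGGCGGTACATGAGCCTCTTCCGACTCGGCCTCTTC

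Slc25a47, the second most abundant member by the mean over the 7 livers, was 98.2, 108, 118 and 219 FPKM in CR livers, against 195, 238 and 148 FPKM in AL livers (log2 fold change -0.56, SE 0.29, adjusted p = 0.211). CR replicate 4 lay among the AL livers and the other 3 CR livers below them all. Without CR replicate 4 the log2 fold change was -0.82. That liver is singled out by its value, so this is a description with no test. Slc25a47 was called in only this 1 of 7 fits that each left out a liver, and its adjusted p reached 0.476 without AL replicate 2. Slc25a48 was 4.94, 4.67, 7.39 and 5.43 FPKM in CR livers, against 1.98, 2.65 and 5.99 FPKM in AL livers (log2 fold change 0.78, adjusted p = 0.153). AL replicate 3 lay among the CR livers, and without it the log2 fold change of Slc25a48 was 1.23, again a description with no test. Slc25a48 was called in only this 1 of 7 fits that each left out a liver, and its adjusted p reached 0.413 without AL replicate 1. Slc25a34 had a log2 fold change of -0.35 (adjusted p = 0.492).

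**Figure D3:**
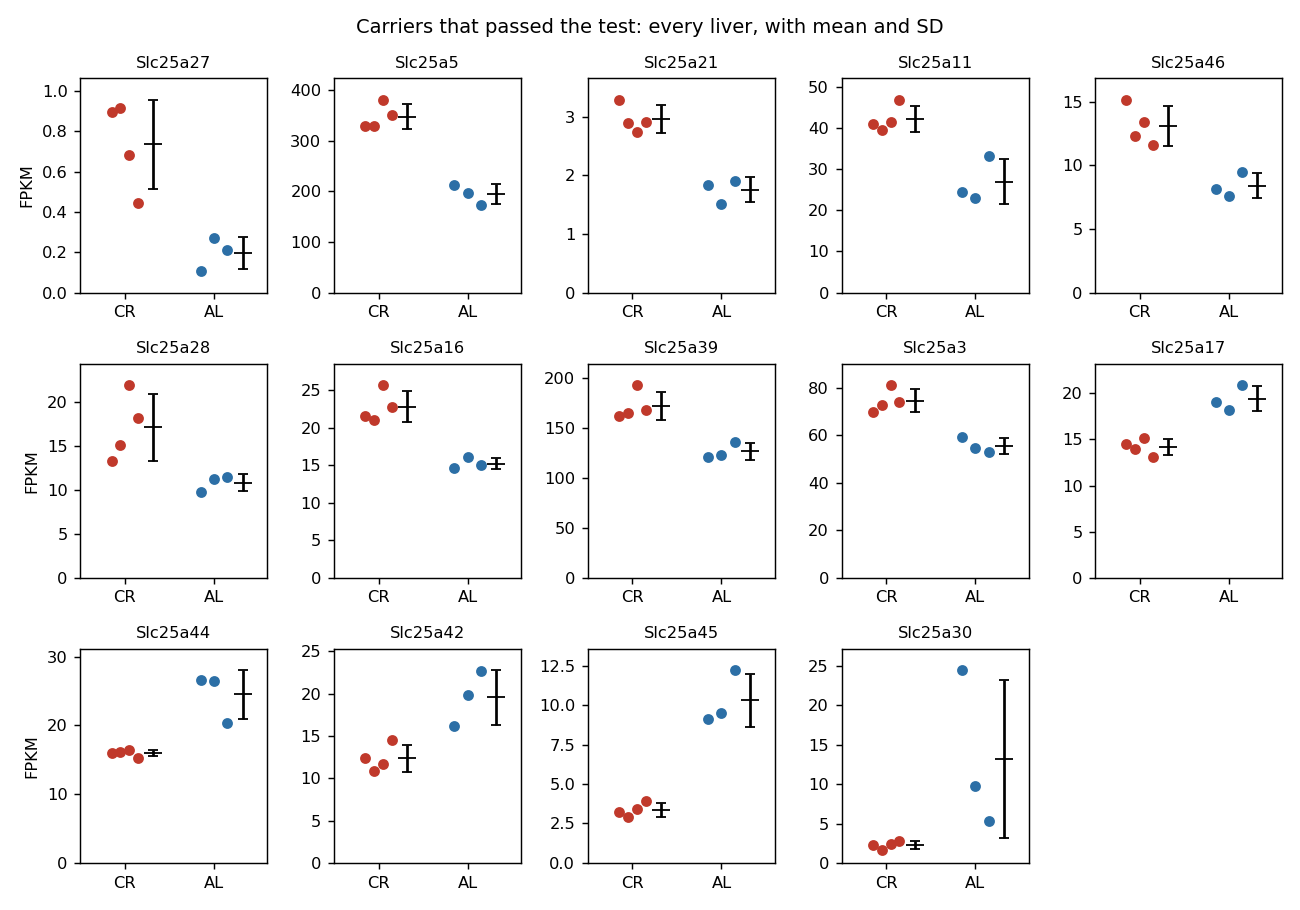
Points give FPKM of 14 called carriers in each liver, 4 CR and 3 AL, with the mean and SD at the right of each group, ordered by log2 fold change, and each panel starts at 0. In all 14 panels the CR and AL points do not overlap, and among these carriers the ratio of the highest to the lowest AL liver is largest for Slc25a30, at 4.57. The carriers were chosen by the test on these same values, and Slc25a27 passed the filter through CR livers alone.

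Several members, called or not, split within the CR group. For 26 of the 35 tested members, Slc25a5 and Slc25a3 among them, CR replicates 1 and 2 lay on one side of CR replicates 3 and 4. Such a split, in either direction, holds for 52.8% of all genes tested. In the members CR replicates 1 and 2 were lower in 21 and higher in 5. The share by direction over all genes was not counted, so this direction cannot be taken as particular to the carriers. The widest case was Slc25a25, a carrier of ATP-Mg and phosphate, with 3.14 and 3.17 FPKM in CR replicates 1 and 2, 44.9 and 51.3 FPKM in CR replicates 3 and 4, and 53.0, 67.0 and 31.2 FPKM in AL livers. CR livers thus differed 16.3-fold, and CR replicates 3 and 4 lay within the range of AL livers (log2 fold change -1.94, SE 1.09, adjusted p = 0.243). Slc25a51, the NAD+ carrier, was 9.70 and 8.61 FPKM in CR replicates 1 and 2, 23.3 and 25.7 FPKM in CR replicates 3 and 4, and 39.0, 36.1 and 16.9 FPKM in AL livers. The glutamate carrier Slc25a22 was 15.3 and 16.0 FPKM in CR replicates 1 and 2, 32.7 and 33.0 FPKM in CR replicates 3 and 4, and 45.2, 52.7 and 26.5 FPKM in AL livers. In these 3 genes AL replicate 3, which had the highest score on the second principal component, was the lowest AL liver. Slc25a33 was 5.44 and 4.63 FPKM in CR replicates 1 and 2 and 11.1 and 10.4 FPKM in CR replicates 3 and 4, which bracket the 7.58 to 9.55 FPKM of the AL livers.

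**Figure D4:**
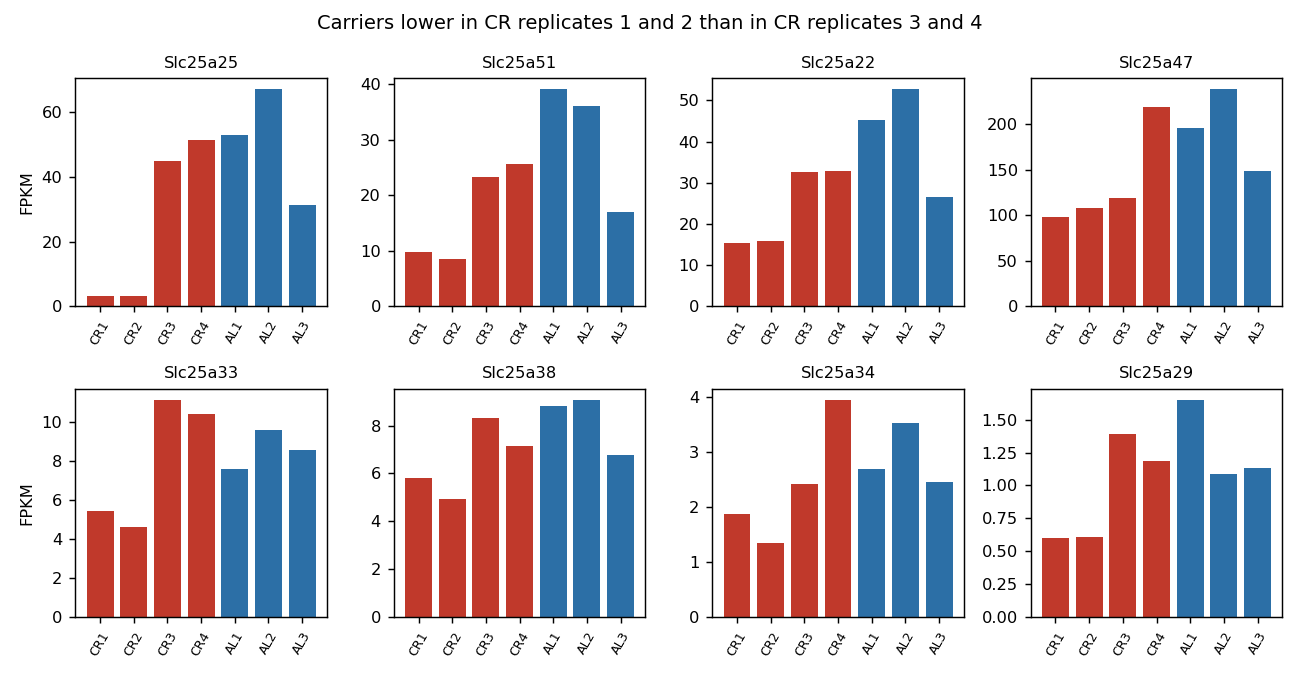
Bars give FPKM of 8 carriers in each liver, CR1 to CR4 and AL1 to AL3, chosen after their values were seen as lower in CR replicates 1 and 2 than in CR replicates 3 and 4. Slc25a25 stands at 3.14 and 3.17 FPKM in CR1 and CR2 and at 44.9 and 51.3 FPKM in CR3 and CR4.

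Leaving out the CR livers by pairs was added after seeing the data, and for members chosen by this split the values are a description with no test. Without CR replicates 1 and 2 the log2 fold change of Slc25a25 was 0.00, and without CR replicates 3 and 4 it was -3.88. Without CR replicates 3 and 4 it was -1.34 for Slc25a22, -0.75 for Slc25a33, -0.88 for Slc25a47 and -1.64 for Slc25a51. Of the 15 called members 4 kept their call without CR replicates 1 and 2, and 8 without CR replicates 3 and 4.

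Related members were set against each other by the log2 ratio of their FPKM in each liver, and 7 pairs could be tested over the 35 splits of the livers, with a smallest possible p of 0.0286. After adjustment over the pairs none passed, but a pair alone at that smallest p has an adjusted p of 0.2, and 5 pairs at it would have been needed for any to pass. Slc25a4 over Slc25a5 was 0.00541 to 0.00789 in CR livers and 0.00892 to 0.0140 in AL livers (difference in log2 ratio -0.72, exact permutation p = 0.0286, adjusted 0.1). The log2 ratio of Slc25a30 over Slc25a14 differed by -2.08 (exact permutation p = 0.0286, adjusted 0.1). Both of these pairs had groups that did not overlap, which the smallest possible p already implies. Slc25a11 over Slc25a10 differed by 0.44 and Slc25a39 over Slc25a40 by 0.21 (exact permutation p = 0.0857, adjusted 0.15 for each). Slc25a37 over Slc25a28 differed by -0.52 and Slc25a25 over Slc25a23 by -1.93 (exact permutation p = 0.257 and 0.286, adjusted 0.333 for each), and Slc25a24 over Slc25a23 by -0.12 (exact permutation p = 0.8).

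Of the 44 members 9 were not tested for low values, with a highest value of 0.635 FPKM. Slc25a36 (pyrimidine nucleotides) was 0.329 to 0.635 FPKM in CR livers and 0.314 to 0.466 FPKM in AL livers, and Slc25a18 (glutamate), Slc25a35 and Slc25a53 were between 0.0815 and 0.489 FPKM in every liver. Slc25a2 (ornithine), Slc25a43, Slc25a31 (the ADP/ATP carrier of testis) and Slc25a54 were listed at 0 in at least 2 of the 7 livers, with at most 16 reads over all livers, and Slc25a41 was listed at 0 in every liver. The filter on FPKM left these 9 out of the test, and not always for few reads, since Slc25a36, whose gene length is 9594 bases, had 519 reads over all livers, against 260 for the tested Slc25a14.

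Other genes of mitochondrial transport and its regulation were taken from lists. Over all genes tested 11.3% were called higher and 10.2% lower. Of the 3 carriers set aside by the rule 1 was called higher, Slc25a13 at 85.6 ± 9.52 FPKM in CR livers (SD, n = 4) and 61.3 ± 10.02 FPKM in AL livers (SD, n = 3), with an adjusted p of 0.0499. No carrier of this list was called without CR replicate 1, 2 or 4 or without AL replicate 1 or 2. Of 14 other inner membrane transporters 3 were called higher and 1 lower. These were Mpc1 and Mpc2, the subunits of the pyruvate carrier, at 21.3 ± 2.25 and 24.2 ± 4.22 FPKM in CR livers against 9.27 ± 1.32 and 13.4 ± 1.28 FPKM in AL livers (log2 fold change 1.19 and 0.83, adjusted p = 0.00106 and 0.00962), Sfxn1, a serine transporter (0.68, adjusted p = 0.00771), and Abcb10 (-0.63, adjusted p = 0.0196), whose call was lost without AL replicate 2. The 3 outer membrane channels Vdac1, Vdac2 and Vdac3, through which the carriers' substrates pass, were all called higher (log2 fold change 0.63, 0.70 and 0.36, adjusted p = 0.00355, 0.00315 and 0.0429), and 2 of them were when any single liver other than CR replicate 4 was left out.

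Of 10 enzymes of the metabolite shuttles Mdh2, the mitochondrial malate dehydrogenase, was called higher (log2 fold change 0.50, adjusted p = 0.0126) and Gpd1, the cytosolic glycerol phosphate dehydrogenase, lower (-0.94, adjusted p = 0.00464). A single call in a list of 10 or 13 genes is near the shares over all genes tested, 11.3% higher and 10.2% lower, and no list was tested as a set. Of 13 genes for the import of carrier proteins none was called higher and only Timm10b lower (-0.93, adjusted p = 0.0298, at 0.478 to 0.631 FPKM in CR livers and 0.904 to 1.56 FPKM in AL livers). Of 3 tested relatives with other names Mtch2 was called higher (0.41, adjusted p = 0.0409), and the uncoupling protein Ucp2 did not pass (-0.62, adjusted p = 0.1003). Of 10 regulators of mitochondrial genes Ppargc1a, a coactivator that induces many of them, was called higher at 5.33 ± 1.10 FPKM in CR livers and 0.920 ± 0.152 FPKM in AL livers (2.404, adjusted p = 0.000215). Of 13 proteins encoded in mitochondrial DNA 5 were called higher, none lower, with a median log2 fold change of 0.49. Leaving out single livers gave between 1 call, without AL replicate 2, and 6 calls, without CR replicate 3, among those 13. The call of Mdh2 was lost without AL replicate 2, that of Timm10b without AL replicate 1 or 2 or CR replicate 1, 3 or 4, and that of Mtch2 without any single liver except CR replicate 4.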

How the data were processed

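Liver poly(A) RNA was sequenced by the authors as paired-end reads. Per the labels, CASAVA 2.19, HISAT2 2.0.5 and featureCounts 1.5.0-p3 were used with GRCm38 (mm10). The deposited values are FPKM per gene, and no source used here gives their formula or their scaling between libraries. Multiplied by gene length they were whole multiples of a step in each library, from which reads were recovered. The authors' own test was DESeq2, which was not used here.

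FPKM values were transformed to log2(FPKM + 0.1), which understates the change of low genes. Genes that reached 0.5 FPKM in 3 or more of 7 libraries, 12699 in all, were compared by diet in limma 3.58.1 with R 4.3.3, using trended and robust variance (statmod 1.5.0). Two-sided p-values were adjusted by Benjamini-Hochberg across these genes. The test was run first on simulated data. No pair of libraries was a duplicate (lowest chi-square per gene 17.0). Member ratios were tested with a two-sided exact permutation test. Promoters came from RefSeq (GRCm38.p6), overlapping genes from the deposited coordinates, and shared sequence from GENCODE M21 transcripts. Figures were drawn with matplotlib 3.10.9 in Python 3.11.15.

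Members, gene lists, markers and motifs were chosen with earlier results of these data known. Each called member, except 1 that is not reported here, and the 10 most abundant are given per liver, and of each list the genes with the smallest adjusted p. Alternatives tried were other pseudocounts, filters, scalings and variance models, limma-voom on recovered reads, a replicate block and leaving out libraries. Protein sequences were not used here, and the pairs of Slc25a33 with Slc25a36 and of Slc25a22 with Slc25a18 were not tested because a partner was too low.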

Additional observations from a re-analysis of the deposited data

Results flagged for a closer look

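Of 50 groups of carrier values, 1 held a liver far from the others of its diet by a gap test. Slc25a47 was 219 FPKM in CR replicate 4, against 98.2, 108 and 118 FPKM in CR replicates 1 to 3, and its gap to the nearest of them was 0.832 of the whole range of the CR livers, just above Dixon's critical value for 4 samples. Chance flags about 1 in 20 groups. The AL livers were at 195, 238 and 148 FPKM.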

How the results depend on the processing

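Other pseudocounts, filters, scalings and variance models and limma-voom on recovered reads left 8 to 10 members called higher and 6 lower, with 14 or 15 of the 15 calls shared. Leaving out 1 library gave 3 to 10 higher and 3 to 7 lower, and 5 members (Slc25a5, Slc25a16, Slc25a21, Slc25a30 and Slc25a45) were called each time. Over all genes, 669 were called higher and 540 lower without AL replicate 2. Without both of CR replicates 1 and 2 the members numbered 3 higher and 1 lower, and without both of CR replicates 3 and 4, 4 higher and 9 lower, both settings chosen after seeing the data. The 9 include Slc25a22, Slc25a25, Slc25a33, Slc25a47 and Slc25a51, which were lower in CR replicates 1 and 2 than in CR replicates 3 and 4. Their calls follow from the choice of livers, so that this count is a description with no test. The replicate block gave 1 higher and 3 lower. Same-numbered livers did not deviate together (correlations -0.0575 to 0.0313 over 3 pairs), so the numbers were not taken to pair the mice.

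No called member changed direction under any alternative. Of the members without a call, Slc25a23 turned to 0.0755 with libraries scaled without mitochondrial and top genes, 0.0352 under the replicate block and 0.0813 without both of CR replicates 3 and 4, and Slc25a26 to -0.00368 with own read totals, -0.0104 under the replicate block and -0.0293 without both of CR replicates 3 and 4. Without both of CR replicates 1 and 2 the log2 fold change was 0.000431 for Slc25a25, -0.10 for Slc25a37, 0.331 for Slc25a33, 0.114 for Slc25a34 and 0.0191 for Slc25a29, and without both of CR replicates 3 and 4 it was 0.0571 for Slc25a14 and 0.255 for Slc25a24. With 1 library left out it ran from -0.119 to 0.188 for Slc25a23, -0.407 to 0.00766 for Slc25a33, -0.00211 to 0.237 for Slc25a4, -0.0583 to 0.111 for Slc25a26, -0.384 to 0.1004 for Slc25a14 and -0.334 to 0.121 for Slc25a24, and the log2 ratio of Slc25a24 over Slc25a23 from -0.376 to 0.240. The causes were not tested. Depth limits the 5 members with at most 16 reads over all livers and Slc25a27, which had 7 to 70 reads per liver.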
